A study of Homo sapiens with 4 samples.

Results

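The 48 genes described here encode the proteins that license origins of DNA replication, control that licensing, switch on the helicase and build the replication fork. They were listed by function, and their identifiers were matched to symbols with the GENCODE annotation on hg19. They are 48 of the 57820 gene rows in each count file, and all 48 were among the 16468 genes with enough counts to be tested. The question was how the genes that control licensing compared with those of the fork enzymes after SGSS05-NS.

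SY5Y, a human neuroblastoma cell line labelled MYCN wild type, was harvested 12 h after treatment, and total RNA was sequenced in 2 libraries from cells given the solvent DMSO and 2 from cells given SGSS05-NS, which the series describes as an inhibitor of the histone H4 lysine 20 methyltransferase SETD8. The study's methods describe the duplicates as independent biological replicates of this single line. The labels give a dose of 3 µM, as do the study's figure legends for these cells, whereas its methods give a lower dose, and the labels write SGSS05-NS where the study writes SGSS05-NS3. Library totals ran from 21463105 to 25350204 counts assigned to genes.

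Before S phase, the origin recognition complex (ORC) and CDC6 bind origins and, with CDT1, load the ring of MCM2 to MCM7, the core of the replicative helicase. Licensing is held to one round per cycle: geminin (GMNN) binds CDT1, and the ubiquitin ligase CRL4 with its receptor CDT2 (the DTL gene) destroys CDT1 and SETD8 on PCNA at forks. CDC45 and the GINS complex then turn the ring into an active helicase, and primase, the polymerases, the sliding clamp and its loader copy the strands. Many of these genes are known targets of E2F transcription factors.

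The cell line label was checked against its markers. Of 10 adrenergic neuroblastoma markers, 9 had at least 10 counts in every library, with tyrosine hydroxylase (TH) at 2 counts or fewer, and their summed level was 3520 to 3810 CPM (counts scaled to equal library size) in DMSO and 1930 to 2150 CPM with SGSS05-NS. Of 9 mesenchymal or stromal markers, 4 reached 10 counts in every library (summed level 223 to 252 CPM in DMSO and 165 to 168 CPM with SGSS05-NS), and PRRX1 and SOX10 were at 0. No blood or endothelial marker exceeded 1 count in a library, CD3E was at 0, and PECAM1 was not matched to a row. The part of the lower adrenergic marker level in the results was not tested. Fragments that met no annotated exon on the strand counted for genes made up 12.3% to 12.4% of the total in DMSO. With SGSS05-NS such fragments made up 15.3% to 16.1%, and their part was not tested either.

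Promoter letters are shown for 7 members: CDT1, the member that rose, its partner in turnover DTL, and 5 of those that fell. ORC2 and PRIM2, which also fell, are not shown. RefSeq sequence on GRCh38.p14, a later build than the hg19 of the counts, was found for 44 of the 48 members, with no entry used for MCM4, GINS4, MCM5 and POLD3. Each line gives the 150 bases before the annotated start, read 5′ to 3′ on the strand of the gene. Capitals mark matches on either strand to an E2F-type motif, written as TTTGGCGC, TTTCGCGC or TTTCCCGC, and to the CCAAT box.
CDT1 (chr16:88803639-88803788, plus strand): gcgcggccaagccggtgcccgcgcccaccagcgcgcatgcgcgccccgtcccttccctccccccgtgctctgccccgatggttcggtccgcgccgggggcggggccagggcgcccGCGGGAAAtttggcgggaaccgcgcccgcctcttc
DTL (chr1:212035598-212035747, plus strand): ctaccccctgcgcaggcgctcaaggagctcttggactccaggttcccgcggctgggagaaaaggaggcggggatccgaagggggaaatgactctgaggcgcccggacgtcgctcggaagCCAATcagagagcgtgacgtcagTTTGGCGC
MCM3 (chr6:52284743-52284892, minus strand): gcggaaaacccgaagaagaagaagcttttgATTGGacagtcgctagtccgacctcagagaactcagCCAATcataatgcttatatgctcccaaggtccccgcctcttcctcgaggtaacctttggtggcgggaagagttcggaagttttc
MCM6 (chr2:135876444-135876593, minus strand): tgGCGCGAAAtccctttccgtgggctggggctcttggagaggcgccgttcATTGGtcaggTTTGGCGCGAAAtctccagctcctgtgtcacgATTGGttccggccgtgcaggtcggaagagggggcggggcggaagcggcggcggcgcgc
GINS1 (chr20:25407523-25407672, plus strand): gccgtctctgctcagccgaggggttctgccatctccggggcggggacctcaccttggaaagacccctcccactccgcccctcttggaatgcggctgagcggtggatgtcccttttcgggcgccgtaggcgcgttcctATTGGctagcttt
POLA1 (chrX:24693768-24693917, plus strand): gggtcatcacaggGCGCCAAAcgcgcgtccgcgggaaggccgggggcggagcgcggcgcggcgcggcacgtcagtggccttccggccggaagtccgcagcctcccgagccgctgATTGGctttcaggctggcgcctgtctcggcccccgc
RRM2 (chr2:10122589-10122738, plus strand): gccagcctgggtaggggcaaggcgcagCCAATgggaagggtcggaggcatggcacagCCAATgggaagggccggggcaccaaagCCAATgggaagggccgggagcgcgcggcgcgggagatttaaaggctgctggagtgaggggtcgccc

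The letters differed among these genes. The CDT1 window held 1 E2F-type match, 35 bases before the start, and no CCAAT box, while the RRM2 window held 3 CCAAT boxes and no E2F-type match. The MCM6 window held 3 E2F-type matches, 2 of them overlapping, and 2 CCAAT boxes. Of the members that fell and are not shown, ORC2 had 1 CCAAT box in its 150-base window and PRIM2 had no match. In the full 300-base windows, which reach 50 bases past the start, an E2F-type match stood in 21 of the 44 members (47.7%), in 4.54% of the 11044 promoters of tested genes and in 2.79% of all 27305 promoters. It stood in 8 of 14 licensing promoters (57.1%) and 7 of 16 fork enzyme promoters (43.8%), and in 4 of the 7 members that fell. A CCAAT box was found in 27 of 44 members (61.4%) against 36.6% of tested genes, and in 6 of the 7 that fell. The cell cycle homology element, TTTGAA or TTCGAA, was found in 2 of 44 (4.55%) and in 1214 of the 11044 promoters of tested genes. These matches are letters only, not sites of binding.

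Across the 48 genes the shift was small and mostly downward. The fitted log2 fold change was below 0 for 39 members and above 0 for 9, with a median of -0.21 against 0.01 for all genes tested, and the extremes were POLA1 at -0.86 and CDT1 at 0.61. At an adjusted p under 0.001, the cutoff of the study applied here to the quasi-likelihood test of edgeR and Benjamini-Hochberg adjustment, 7 members fell (14.6%) and 1 rose (2.08%). The likelihood ratio test, which the study used, gave 10 members lower and 1 higher, with 2267 and 2022 of all genes. Among all genes tested 8.14% fell and 6.37% rose. The count that fell was therefore above the background by a few genes only, and it is read here with the individual values. Of the 7915 genes at or above the mean level of the lowest member, 10.9% fell and 6.78% rose, with a median of -0.04.

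At an adjusted p under 0.05, 22 members were lower (45.8%) and 3 higher (6.25%), where 23.7% of all genes were lower and 22.6% higher. Both SGSS05-NS libraries lay below both DMSO libraries for 33 members (68.8%, against 36.9% of all genes) and above them for 6 (12.5%, against 37.8%), and they overlapped for 9. The lower and upper quartiles were -0.41 and -0.08 for the members and -0.34 and 0.39 for all genes. A change larger than that of POLA1, in either direction, was seen in 20.7% of all genes and in none of the members. In bulk RNA, fewer cells in S phase and less of these transcripts per cell cannot be told apart.

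**Figure D1:**
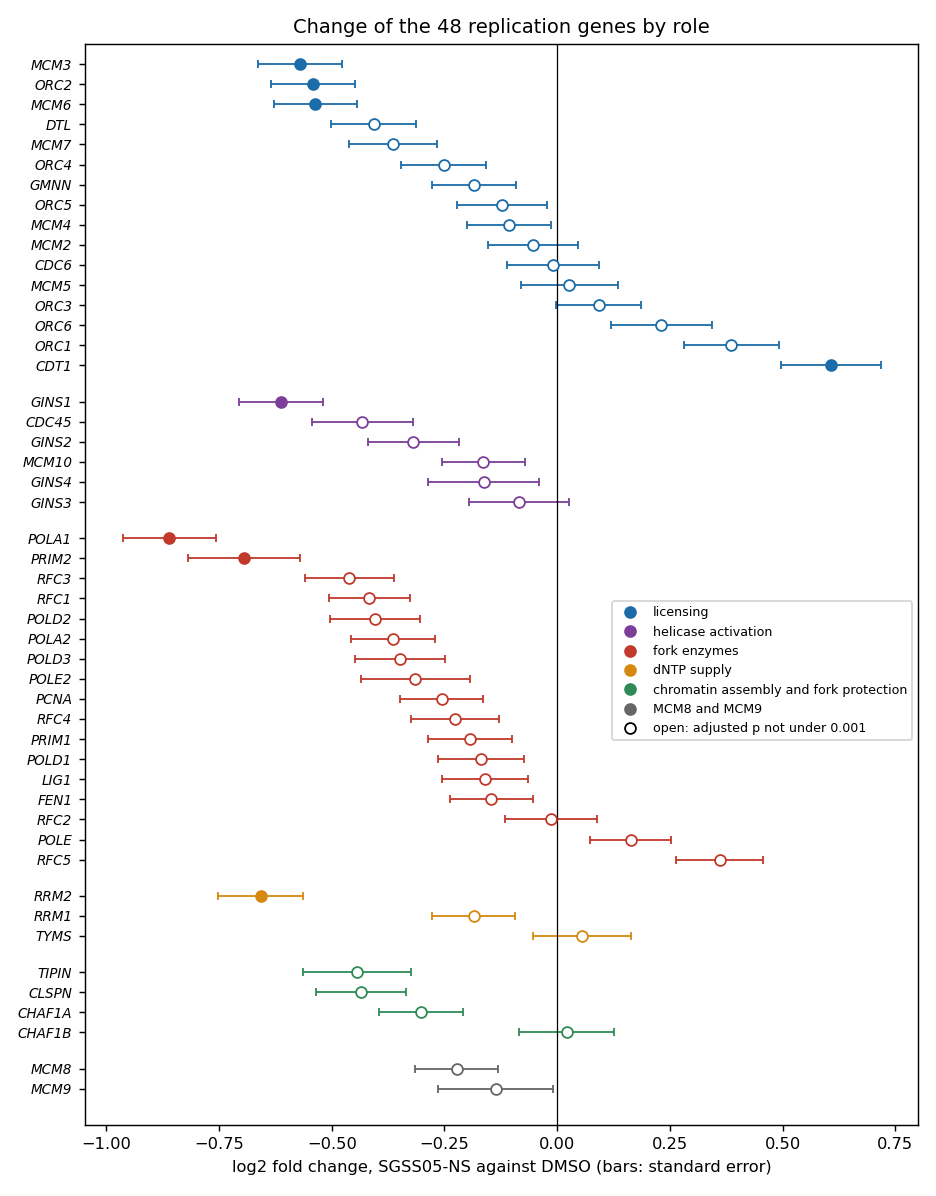
The log2 fold change of SGSS05-NS against DMSO (horizontal axis) is plotted for each of the 48 genes, grouped by role, with bars for the standard error and filled points for an adjusted p under 0.001. CDT1 is the single filled point to the right of 0, and 7 filled points lie to the left, from -0.54 to -0.86.

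Of the 4 genes of licensing control, 1 rose and none fell at 0.001, and 1 was lower at 0.05. Over all genes tested, 6.37% rose and 8.14% fell at 0.001, and 23.7% were lower at 0.05. CDT1, which brings the MCM ring to origins (chromosome 16 of GRCh37 from 88870197 to 88875666), was at 70.8 and 57.2 CPM in the DMSO libraries and at 95.1 and 99.9 CPM with SGSS05-NS. Both treated libraries were above both controls. It rose by 0.61 on the log2 scale (standard error 0.11, 1.52-fold, edgeR adjusted p = 0.00092). This call stood close to the threshold: without DMSO replicate 2, the lower of the controls, the log2 fold change was 0.44 and the adjusted p 0.0098. It was also lost with scaling by library size only (adjusted p = 0.0013) and with counts taken without regard to strand (adjusted p = 0.0016).

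None of the other 3 was higher at either threshold. GMNN, the inhibitor that binds CDT1, was at 53.0 and 52.6 CPM in DMSO and 47.0 and 45.9 CPM with SGSS05-NS (log2 fold change -0.18, standard error 0.09, edgeR adjusted p = 0.12), so the groups did not overlap but the test was not passed. DTL, the receptor through which CRL4 marks CDT1 for destruction, was at 201 and 192 CPM in DMSO and 142 and 155 CPM with SGSS05-NS. Its log2 fold change of -0.41 (standard error 0.09) had an edgeR adjusted p of 0.0042, under 0.05 and not under 0.001. CDC6, the ATPase that works beside CDT1 in loading, was at 106 and 90.1 CPM in DMSO and 97.7 and 97.5 CPM with SGSS05-NS. The treated libraries lay between the controls, and the log2 fold change was -0.01 (standard error 0.10, edgeR adjusted p = 0.95).

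Ratios within a library need no scaling between libraries. The CDT1 counts divided by those of GMNN were 1.34 and 1.09 in DMSO and 2.02 and 2.17 with SGSS05-NS. Divided by DTL they were 0.351 and 0.297 in DMSO and 0.669 and 0.645 with SGSS05-NS; of the 14 ratios formed, POLA1 over POLE was the other that moved by as much. Against CDC6 they were 0.666 and 0.634 in DMSO and 0.973 and 1.02 with SGSS05-NS. None of the 3 ratios overlapped between the groups. These ratios were picked with values in view and restate the fold changes, so they add no separate support. With 2 libraries against 2, an exact permutation test cannot go below p = 0.333, so no test is given for them.

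**Figure D2:**
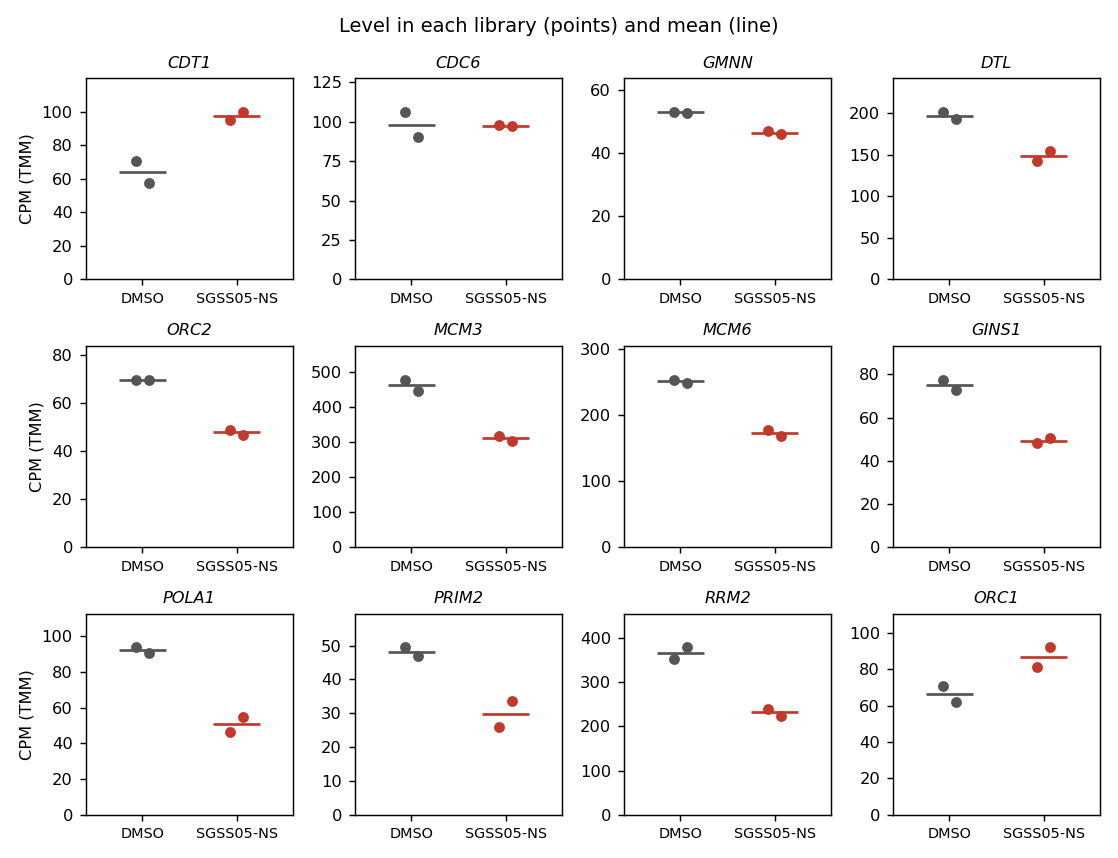
TMM-scaled level in CPM (vertical axes, from 0) of 12 genes in each library (points) with the mean of the 2 libraries of a group (lines). The points of CDC6 overlap between the groups, CDT1 and ORC1 are higher with SGSS05-NS in both libraries, and the other 9 genes are lower in both.

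The 6 subunits of ORC split evenly, 3 above 0 and 3 below, with a median of -0.02. ORC2, a core subunit, was at 69.3 and 69.6 CPM in DMSO and 48.8 and 46.6 CPM with SGSS05-NS, with little spread in either group. It fell by 0.54 on the log2 scale (standard error 0.09, edgeR adjusted p = 0.00060), and the adjusted p was 0.0013 without SGSS05-NS replicate 2 and 0.0020 with scaling by library size only. ORC1, the subunit whose level is tied to the cell cycle, was at 70.7 and 61.7 CPM in DMSO and 81.3 and 91.9 CPM with SGSS05-NS, a log2 fold change of 0.39 (standard error 0.10) that was under 0.05 only (edgeR adjusted p = 0.010). The counts of ORC2 over those of ORC1 were thus 0.979 and 1.13 in DMSO and 0.601 and 0.506 with SGSS05-NS. The log2 fold change was -0.25 for ORC4 (edgeR adjusted p = 0.046), -0.12 for ORC5, 0.09 for ORC3 and 0.23 for ORC6, the last 3 with adjusted p-values from 0.11 to 0.45.

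The 6 subunits of the MCM ring, which are needed in equal number in the protein, also had unequal values. MCM3 (chromosome 6 from 52128812 to 52149679) was at 479 and 447 CPM in DMSO and 319 and 304 CPM with SGSS05-NS and fell by 0.57 on the log2 scale (standard error 0.09, edgeR adjusted p = 0.00046). MCM6 (chromosome 2 from 136597196 to 136634013) was at 254 and 249 CPM in DMSO and 178 and 169 CPM with SGSS05-NS and fell by 0.54 (standard error 0.09, edgeR adjusted p = 0.00059, and 0.0012 without SGSS05-NS replicate 2). For both genes every treated library was below every control. Scaling by library size only ended both calls (adjusted p = 0.0011 for MCM3 and 0.0016 for MCM6). MCM7 had a log2 fold change of -0.36 at an edgeR adjusted p of 0.0099.

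The other 3 subunits gave no call at either threshold. MCM2 was at 397 and 346 CPM in DMSO and 349 and 367 CPM with SGSS05-NS (log2 fold change -0.05), MCM4 had a log2 fold change of -0.11, and MCM5, at 0.03, overlapped between the groups. Over MCM2 in the same library, MCM3 went from 1.21 and 1.29 in DMSO to 0.914 and 0.829 with SGSS05-NS, and MCM6 from 0.639 and 0.721 to 0.509 and 0.461. The ratio of MCM4 to MCM2 was 0.891 and 0.971 in DMSO and 0.886 and 0.903 with SGSS05-NS, where the groups overlapped. Per kilobase of transcript, MCM7 was the highest of the 6 in DMSO at 310 ± 18 RPKM (SD, n = 2), followed by MCM3 at 151 ± 7.4 RPKM and MCM2 at 108 ± 11 RPKM. With SGSS05-NS the levels of MCM3 and MCM2 were 102 ± 3.5 and 104 ± 3.6 RPKM, no longer apart by more than their spread.

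**Figure D3:**
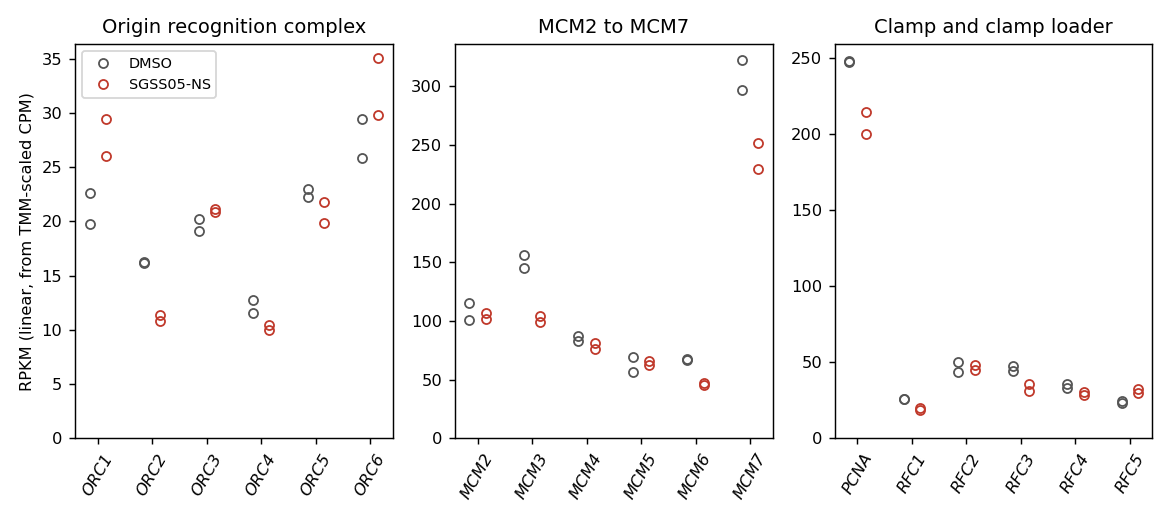
Level per kilobase of transcript (RPKM, linear axes from 0) of the 6 ORC subunits, of MCM2 to MCM7, and of PCNA with the 5 clamp loader subunits, 1 point per library. MCM3 lies above MCM2 in both DMSO libraries and level with it in both SGSS05-NS libraries, and ORC1 and ORC2 move apart.

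The 16 licensing genes together had 3 that fell (18.8%) and 1 that rose (6.25%), and a median log2 fold change of -0.11. Over all genes tested 8.14% fell and 6.37% rose, so the share of licensing genes that rose was near the background. MCM8 and MCM9, which form a separate helicase used in recombination and are not part of the licensed ring, were not called. MCM8 was at 66.4 and 66.4 CPM in DMSO and 55.6 and 58.1 CPM with SGSS05-NS (log2 fold change -0.22, standard error 0.09, edgeR adjusted p = 0.064). MCM9 was at 21.8 and 23.4 CPM in DMSO and 18.5 and 22.6 CPM with SGSS05-NS (log2 fold change -0.14, standard error 0.13, edgeR adjusted p = 0.41), with overlapping groups.

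The 6 genes that act in helicase activation all had values below 0, with a median of -0.24, and 1 of them fell (16.7%). Of all genes tested, 49.0% had values below 0 and 8.14% fell. Values below 0 made up 55.0% of the genes at or above the mean level of the lowest member. With 1 gene of 6, the share that fell cannot be told from the background. GINS1, a subunit of the GINS complex (chromosome 20 from 25371644 to 25433336), was at 77.5 and 72.8 CPM in DMSO and 47.99 and 50.3 CPM with SGSS05-NS. It fell by 0.61 on the log2 scale (standard error 0.09, edgeR adjusted p = 0.00028), and it was called in each of the 9 other settings and with each library left out. CDC45, which joins GINS on the ring, was at 67.1 and 55.7 CPM in DMSO and 43.2 and 47.9 CPM with SGSS05-NS (log2 fold change -0.43, standard error 0.11, edgeR adjusted p = 0.0078). GINS2 was at 73.6 and 64.3 CPM in DMSO and 53.4 and 57.2 CPM with SGSS05-NS (log2 fold change -0.32, standard error 0.10, edgeR adjusted p = 0.022). GINS3 at -0.08, GINS4 at -0.16 and MCM10 at -0.16, which links the helicase to the polymerase that primes, had edgeR adjusted p-values from 0.17 to 0.56.

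Of the 17 fork enzyme genes, 2 fell (11.8%) in edgeR's quasi-likelihood test, 4 in the likelihood ratio test, 3 with DESeq2 and 2 with voom, and none rose in any of these. Over the 16468 genes tested, 1341 (8.14%), 2267, 1576 and 1306 fell, in the same order. The number of fork enzymes that fell in the quasi-likelihood test was thus close to the background. In that test 9 were lower (52.9%) and 1 higher (5.88%) at an adjusted p under 0.05, where 23.7% of all genes were lower and 22.6% higher. The median log2 fold change was -0.26 against -0.11 for the 16 licensing genes. The libraries were separate and lower for 14 of the 17 (82.4%, against 36.9% of all genes tested). They were separate and higher for 2 (11.8%, against 37.8%) and overlapping for 1. The 4 licensing control genes alone had a median of -0.10.

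Both calls of the quasi-likelihood test were in the complex that starts each new strand. POLA1, the catalytic subunit of DNA polymerase alpha (chromosome X from 24711990 to 25015103), was at 93.7 and 90.7 CPM in DMSO and 46.5 and 55.0 CPM with SGSS05-NS. It fell by 0.86 on the log2 scale to 0.551 of the control level (standard error 0.10, edgeR adjusted p = 4.9e-05) and was called in each of the 9 other settings and with each library left out. PRIM2, the large subunit of primase (chromosome 6 from 57179603 to 57513376), was at 49.4 and 46.8 CPM in DMSO and 25.9 and 33.6 CPM with SGSS05-NS. It fell by 0.69 (standard error 0.12, edgeR adjusted p = 0.00083). Without SGSS05-NS replicate 1, its lower treated library, the value was -0.53 and the adjusted p 0.0012, and the call was also lost with scaling by library size only (0.0015) and with a minimum of 10 counts in every library (0.0011). Its level is uncertain where the genome holds near-identical copies, because the counting left out fragments with several matches.

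The partners of these subunits were not called at 0.001. POLA2, the second subunit of polymerase alpha, had a log2 fold change of -0.36 (edgeR adjusted p = 0.0074), and PRIM1, the catalytic subunit of primase, one of -0.19 (0.11). The counts of POLA1 over those of POLA2 were 1.31 and 1.33 in DMSO and 0.877 and 0.990 with SGSS05-NS, and those of PRIM2 over PRIM1 were 0.921 and 0.876 in DMSO and 0.560 and 0.707 with SGSS05-NS. Neither ratio overlapped between the groups, and these pairs too were picked with values in view.

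The polymerases of the moving fork had values on both sides of 0. POLE, the catalytic subunit of the leading strand polymerase epsilon, was at 137 and 139 CPM in DMSO and 153 and 155 CPM with SGSS05-NS, separate between groups but not called (log2 fold change 0.16, edgeR adjusted p = 0.16), while its second subunit POLE2 had a value of -0.31 (0.0497). POLA1 over POLE was 0.685 and 0.654 in DMSO and 0.303 and 0.355 with SGSS05-NS. Of polymerase delta, which copies the lagging strand, POLD2 (-0.40, edgeR adjusted p = 0.0062) and POLD3 (-0.35, 0.014) were lower at 0.05 and the catalytic subunit POLD1 (-0.17, 0.17) was not.

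The clamp loader had subunits on both sides of 0. RFC3 was at 102 and 109 CPM in DMSO and 71.8 and 81.8 CPM with SGSS05-NS (log2 fold change -0.46, standard error 0.10, edgeR adjusted p = 0.0027), and the large subunit RFC1 had a value of -0.42 (0.0029). RFC5 was at 52.1 and 49.1 CPM in DMSO and 62.2 and 67.7 CPM with SGSS05-NS, a log2 fold change of 0.36 (standard error 0.10, edgeR adjusted p = 0.0093). RFC2 at -0.01 and RFC4 at -0.23 passed neither threshold. PCNA, the clamp itself and the platform on which CRL4 meets CDT1, was at 315 and 316 CPM in DMSO and 273 and 255 CPM with SGSS05-NS (log2 fold change -0.26, edgeR adjusted p = 0.038). FEN1 and LIG1, which trim and seal Okazaki fragments, had values of -0.15 and -0.16 and adjusted p-values of 0.21 and 0.19.

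**Figure D4:**
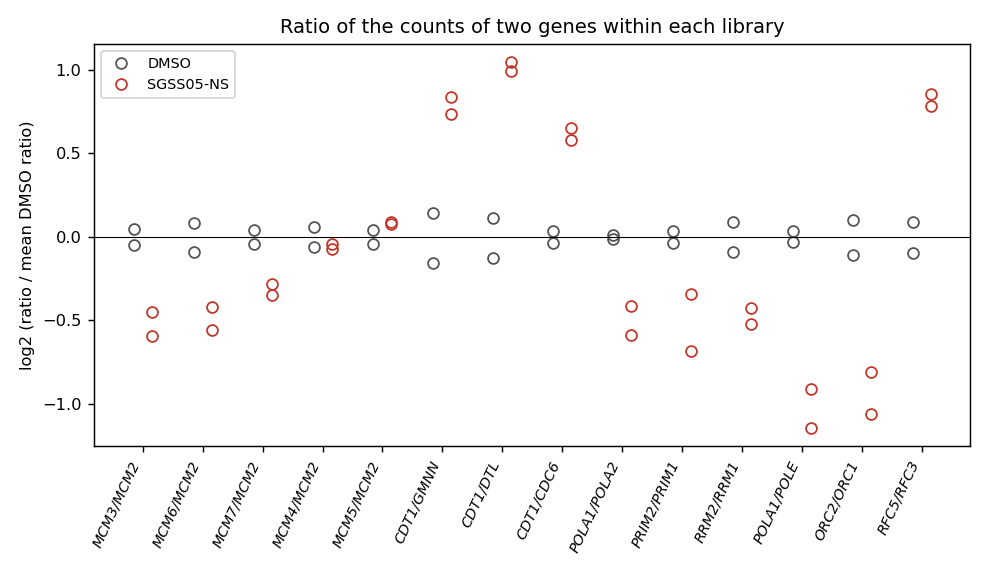
Ratio of the counts of 2 genes in the same library, as log2 of the ratio over the mean DMSO ratio (vertical axis), 1 point per library, for 14 pairs. The SGSS05-NS points lie above the DMSO points for the 3 pairs with CDT1 on top, for RFC5 over RFC3 and slightly for MCM5 over MCM2, overlap with them for MCM4 over MCM2, and lie lower for the pairs led by POLA1, PRIM2, RRM2, ORC2, MCM3, MCM6 and MCM7.

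Of the 3 genes of deoxynucleotide supply, 1 fell (33.3%, against 8.14% of all genes tested). RRM2, the regulatory subunit of ribonucleotide reductase made mainly in S phase (chromosome 2 from 10260825 to 10351851), was at 352 and 378 CPM in DMSO and 239 and 224 CPM with SGSS05-NS. It fell by 0.66 on the log2 scale (standard error 0.09, edgeR adjusted p = 0.00018), called in each of the 9 other settings and with each library left out. Its partner RRM1, the catalytic subunit, was at 330 and 312 CPM in DMSO and 282 and 282 CPM with SGSS05-NS (log2 fold change -0.19, standard error 0.09, edgeR adjusted p = 0.12). TYMS, which makes thymidylate, was at 117 and 139 CPM in DMSO and 141 and 126 CPM with SGSS05-NS (log2 fold change 0.06, standard error 0.11, edgeR adjusted p = 0.70), with overlapping groups. Counted without regard to strand, TYMS kept 32.4% of its counts, since fragments that overlap a gene on the other strand then become ambiguous.

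The 4 genes of chromatin assembly and fork protection held no call, and 3 were lower at an adjusted p under 0.05. CLSPN, the checkpoint mediator claspin, was at 84.4 and 83.9 CPM in DMSO and 66.9 and 57.6 CPM with SGSS05-NS (log2 fold change -0.44, standard error 0.10, edgeR adjusted p = 0.0041). TIPIN, which travels with the fork together with TIMELESS, was at 26.3 and 27.0 CPM in DMSO and 18.0 and 21.1 CPM with SGSS05-NS (log2 fold change -0.44, standard error 0.12, edgeR adjusted p = 0.0096). CHAF1A, the large subunit of the histone chaperone CAF-1, was at 96.2 and 93.0 CPM in DMSO and 80.0 and 73.5 CPM with SGSS05-NS (log2 fold change -0.30, standard error 0.09, edgeR adjusted p = 0.020), whereas CHAF1B was at 0.02 (0.89).

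The 43 other genes of the same pathways that could be tested, from 4 lists, had 3 that rose (6.98%), 3 that fell (6.98%) and a median of -0.14, with shares near the 6.37% and 8.14% over all genes tested. Of 6 genes of CRL4-CDT2 and its substrates, CDKN1A and KMT5A rose. CDKN1A, which encodes the inhibitor p21 that blocks cyclin-dependent kinases, was at 19.6 and 15.3 CPM in DMSO and 520 and 374 CPM with SGSS05-NS (log2 fold change 4.68, standard error 0.17, edgeR adjusted p = 5.2e-09). KMT5A, the gene of SETD8, was at 54.6 and 56.8 CPM in DMSO and 82.8 and 83.0 CPM with SGSS05-NS (log2 fold change 0.57, standard error 0.09, edgeR adjusted p = 0.00037). Like CDT1, both encode proteins that this ligase destroys in S phase. The RNA levels here do not measure that destruction, and any part of it in these values was not tested. The ligase subunits themselves were not called: CUL4A had a log2 fold change of -0.14, CUL4B 0.02 and DDB1 -0.11, with edgeR adjusted p-values from 0.24 to 0.92. RBX1 was at 11.4 and 11.7 CPM in DMSO and 7.79 and 7.27 CPM with SGSS05-NS, a log2 fold change of -0.62 (standard error 0.15) with an edgeR adjusted p of 0.0048.

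Of 11 firing factors, 2 fell (18.2%, against 8.14% of all genes tested). WDHD1, which tethers polymerase alpha to the helicase, was at 90.6 and 79.8 CPM in DMSO and 54.8 and 50.1 CPM with SGSS05-NS (log2 fold change -0.70, standard error 0.10, edgeR adjusted p = 0.00019). CDC7, the kinase that phosphorylates the MCM ring, was at 47.0 and 49.95 CPM in DMSO and 30.6 and 32.6 CPM with SGSS05-NS (-0.62, standard error 0.10, edgeR adjusted p = 0.00043). Neither gene overlapped between the groups.

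Of 18 other fork factors tested, 1 fell (5.56%, against 8.14% of all genes tested). TOP2A, a topoisomerase that peaks in late cycle, was at 885 and 843 CPM in DMSO and 558 and 476 CPM with SGSS05-NS (log2 fold change -0.74, standard error 0.10, edgeR adjusted p = 0.00015). RPA3, a subunit of the single-strand binding protein, was at 67.9 and 66.1 CPM in DMSO and 48.6 and 47.45 CPM with SGSS05-NS (-0.48, standard error 0.09, edgeR adjusted p = 0.0013), separate between groups but not called. Of 8 other deoxynucleotide genes, 1 rose (12.5%, against 6.37% of all genes tested). This was RRM2B, the reductase subunit that p53 induces, opposite in direction to RRM2. It was at 30.2 and 28.6 CPM in DMSO and 59.3 and 46.6 CPM with SGSS05-NS (log2 fold change 0.85, standard error 0.12, edgeR adjusted p = 0.00017). DTYMK, thymidylate kinase, was at 62.2 and 57.95 CPM in DMSO and 43.1 and 44.6 CPM with SGSS05-NS (-0.45, standard error 0.10, edgeR adjusted p = 0.0023).

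The genomic length of a gene varied with its value among members as it did among all genes. The span ran from first to last base of the gene entry, over all its annotated transcripts, and can exceed that of the main transcript. Across the 48 members Spearman's rho between span and log2 fold change was -0.38. Across 16042 tested genes with a position it was -0.22. Both are descriptions over genes that share the same 4 libraries. The 2 longest members, PRIM2 at 334 kb and POLA1 at 303 kb, were the 2 with the lowest values. Of 6 members over 100 kb, 2 fell, with a median of -0.41, where the 2833 genes of that length had a median of -0.42 and 27.8% fell. Of the 42 members of 100 kb or less, 5 fell (11.9%) and 1 rose, with a median of -0.19, where the 13209 genes of that length had a median of 0.09 and 3.91% fell. The part of length in the values of POLA1 and PRIM2 was not tested.

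**Figure D5:**
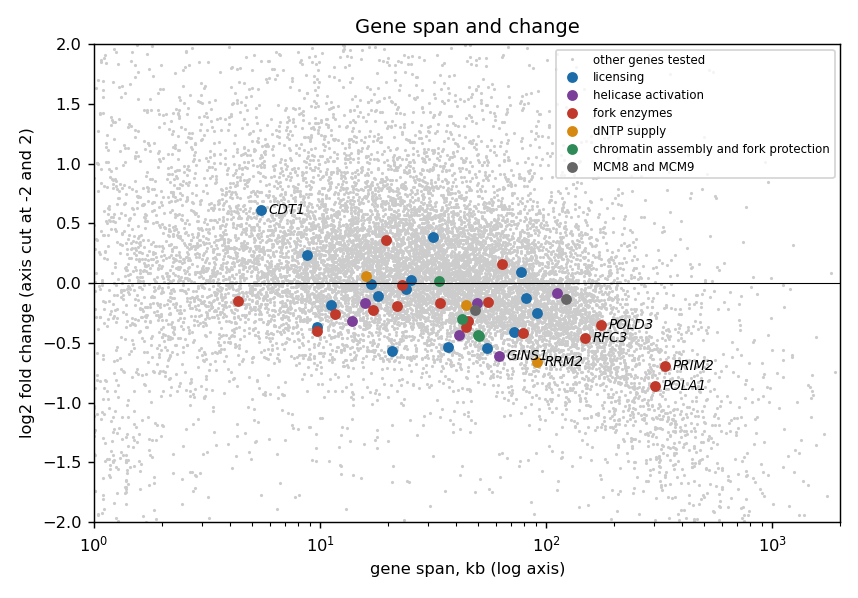
Log2 fold change of SGSS05-NS against DMSO (vertical axis) against the genomic span of each gene in kb (log axis), with members coloured by role and other tested genes in grey. POLA1 and PRIM2 lie at the far right and low, inside the downward drift of the grey points, while GINS1, RRM2, MCM3 and MCM6 lie low among genes under 100 kb.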

How the data were processed

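SY5Y cells were profiled by RNA-seq, 2 DMSO and 2 SGSS05-NS libraries, grouped by title and treatment label. Per the submitters' notes and the methods, the authors used Trimmomatic 0.30 for trimming, STAR 2.4.2a for alignment to hg19 and edgeR 3.10.5 for testing. The deposited counts are raw fragments per gene in 3 columns, unstranded, forward and reverse. The labels name a TruSeq RNA kit, the methods a stranded total RNA kit. The reverse-strand column was used, in which 4.64% to 5.05% of strand-resolved fragments lay on the other strand. Summary rows (no feature, ambiguous, multimapping, unmapped) were left out of tests.

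Symbols and positions came from GENCODE on GRCh37, and 2282 identifiers had no entry. Testing used R 4.3.3 and edgeR 4.0.16 (filterByExpr, TMM scaling, glmQLFit and glmQLFTest, no covariate, Benjamini-Hochberg over 16468 genes, threshold 0.001 as in the study, which used the likelihood ratio test), after checks on simulated counts. CPM are TMM-scaled, RPKM use the MANE or canonical transcript length, and the standard error is the log2 fold change over the square root of F. Counts of replicates differed beyond sampling (chi-square over its degrees of freedom 8.76 and 11.8).

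Per-library values and statistics are given for the 3 members with the smallest p in each role group of 4 or more, all members of smaller groups, the 4 licensing control genes, and the 2 other pathway genes per list with the smallest p. The other CRL4-CDT2 genes are given by fold change. Further genes with values (RBX1, ORC1, MCM2, POLE, RFC5, PCNA and those in ratios) were picked with values in view. The members, lists and promoter motifs were chosen with earlier results of these data known. UHRF1 was not matched to an identifier. Alternatives were the likelihood ratio test, DESeq2 1.42.0, voom of limma 3.58.1, other scalings, filters, strand and threshold, the replicate block and each library left out.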

Additional observations from a re-analysis of the deposited data

How the results depend on the processing

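Directions held for most members: POLA1, GINS1 and RRM2 were called lower in every setting tried. The calls counted for members lower (7), members higher (1), licensing genes lower (3) and fork enzymes lower (2) moved as follows. Scaling by library size only gave 3, 0, 0 and 1, and no licensing gene higher. No filter on low counts gave 14 members, 5 licensing genes and 5 fork enzymes lower. The likelihood ratio test gave 4 fork enzymes lower, and a minimum of 10 counts in every library gave 1. Counts without regard to strand gave 0 members and 0 licensing genes higher. At an adjusted p under 0.05 there were 22 members lower and 3 higher, 6 licensing genes lower and 2 higher, and 9 fork enzymes lower and 1 higher. Over all genes, 1049 rose and 1341 fell, and the likelihood ratio test gave 2022 and 2267. An adjusted p under 0.05 gave 3728 and 3903. No filter gave 2034 and 2570, but over 30755 genes tested where the main test had 16468. The cause of these moves was not tested.

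With the replicate block 1759 genes rose and 2007 fell, and 8 members fell and 1 rose. The deviations of the replicate 1 libraries from their group means had a correlation of 0.062. With 2 libraries a group, the deviations of replicate 2 are the same with the sign turned and add nothing. The libraries were treated as sharing only a number.

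With single libraries left out (the lone library assumed to vary like the others), members higher ran from 0 to 1 and members lower from 6 to 9, licensing genes higher from 0 to 1 and lower from 1 to 3, fork enzymes lower from 1 to 3, and the licensing median from -0.17 to -0.0657. The 0 is without DMSO replicate 2, the 1 licensing gene lower without SGSS05-NS replicate 2, and the 1 fork enzyme lower without SGSS05-NS replicate 1. Limited to genes of 100 kb or less, a choice made after the values were seen, the medians were -0.11 for licensing genes and -0.19 for fork enzymes.

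Members near 0 changed sign: CDC6 was 0.0231 with library size only and 0.0033 with the count minimum, RFC2 0.0167 with library size only, MCM5 -0.0116 and CHAF1B -0.0193 without regard to strand, MCM5 -0.0003 and CHAF1B -0.006 with no filter, and TYMS -0.064 without regard to strand. With libraries left out, CDC6 ran from -0.14 to 0.11, MCM2 from -0.17 to 0.04, MCM5 from -0.13 to 0.17, RFC2 from -0.13 to 0.0864, TYMS from -0.0745 to 0.17 and CHAF1B from -0.087 to 0.11. With the settings of the main test, no member with a log2 change smaller in size than that of MCM6 was called at 0.001. On the same libraries the likelihood ratio test called RFC1 at -0.42, and the setting with no filter called MCM7 at -0.39.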

Other observations

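Counts on the strand opposite to the gene were tested as a separate column. Of the 48 members, 16 had enough of these counts, and at an adjusted p under 0.001 from edgeR's quasi-likelihood test 0 were higher and 0 lower with SGSS05-NS, where 264 of 7200 genes were higher and 415 lower. At an unadjusted p under 0.05, 2 members were higher (RFC4 and TYMS) and 4 lower (MCM3, FEN1, GINS2 and ORC4). The share of all 7200 genes at that threshold is not given, so these counts have no background. They also rest on few fragments. MCM3 had 14 and 15 in DMSO and 6 and 6 with SGSS05-NS, and RFC4 had 39 and 26 in DMSO and 53 and 61 with SGSS05-NS.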
